A study of Mus musculus with 12 samples.

Results

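The kinesin superfamily genes (symbols beginning with Kif and a digit) were followed in whole-retina RNA of 5xFAD and WT mice at 1 and 6 months of age. All protein-coding genes of the gene table whose GENCODE M21 symbol begins with Kif and a digit were taken, which gave 39 of 55487 genes. They comprised 12 neuronal transport kinesins, 9 ciliary kinesins, 12 mitotic kinesins and 5 other kinesins. The remaining gene, Kif1bp, matched by its symbol but encodes a kinesin-binding protein and not a motor. The 4 groups held 3 libraries each and were 5xFAD at 1 month, WT at 1 month, 5xFAD at 6 months and WT at 6 months. The 5xFAD animals carried the strain label Tg6799, a line in which mutant human transgenes of familial Alzheimer disease, APP among them, are driven by the neuronal Thy1 promoter. The WT animals carried the label C57BL/6J, and strain background and transgene cannot be told apart between the genotypes. Separate animals behind the libraries of a group are not stated, and p-values therefore measure the spread between libraries, which may be technical. Sex and pooling of animals are not given in the sources used here.

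Kinesins are microtubule motors. Each uses ATP hydrolysis in a conserved motor domain, and most walk toward microtubule plus ends. In axons the plus ends point away from the cell body, so kinesin-1 (Kif5), kinesin-3 (Kif1 and Kif13) and their relatives carry vesicles, mitochondria and cytoskeletal cargo toward synapses. In cilia, kinesin-2 (Kif3) drives anterograde intraflagellar transport, and in photoreceptors it serves the connecting cilium, the path by which membrane proteins reach the outer segment. Mitotic kinesins build and resolve the spindle and are usually low in tissue with few dividing cells.

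Libraries held 10928031 to 19552537 expected counts. Gnat1, the rod transducin gene, averaged 11583 ± 354 counts per 1000000 (CPM, scaled with TMM factors) in 5xFAD and 11122 ± 538 CPM in WT at 1 month, and 12586 ± 285 CPM in 5xFAD and 11125 ± 512 CPM in WT at 6 months (SD, n = 3 each). The libraries differed in the mean length of the transcripts behind their counts, which ran from 4195 to 4227 nt in 5xFAD and 3579 to 3790 nt in WT at 1 month, and from 3632 to 3730 nt in 5xFAD and 3700 to 4019 nt in WT at 6 months. The 3 libraries 5xFAD at 6 months replicates 1 and 2 and WT at 1 month replicate 2 held the largest shares of ribosomal RNA (1.11%, 0.446% and 0.325%). Markers of tissue beside the retina differed with genotype at 1 month. The 8 pigment epithelium markers summed to 21.4 to 34.4 CPM in 5xFAD and 69.1 to 143 CPM in WT, and the 6 lens markers to 4.95 to 43.9 CPM in 5xFAD and 0 to 0.629 CPM in WT. Apart from these, the 6 endothelial markers summed to 205 to 223 CPM in 5xFAD and 123 to 146 CPM in WT at 1 month, and to 79.4 to 94.7 CPM in 5xFAD and 112 to 152 CPM in WT at 6 months. At 6 months Kdr alone averaged 77.2 CPM in 5xFAD and 119 CPM in WT. By edgeR 1 of the 6 was higher in 5xFAD at 1 month (10.7% of all genes). At 6 months 1, Kdr, was lower (3.89% of all genes). The part of these tissues in the kinesin results was not tested. In whole retina, fewer cells of a type and less RNA per cell cannot be told apart.

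Levels of the 39 genes were compared as transcripts per 1000000 (TPM), computed from the transcript counts and annotated lengths. The retina's kinesin RNA was dominated by neuronal transport motors. Kif1a, which carries synaptic vesicle precursors, stood first with 279 ± 25.0 TPM in 5xFAD and 195 ± 33.1 TPM in WT at 1 month, and 160.1 ± 3.91 TPM in 5xFAD and 215 ± 35.0 TPM in WT at 6 months (SD, n = 3 each). Kif1b, which carries mitochondria and synaptic vesicle precursors, followed with 248 ± 15.3 TPM in 5xFAD and 152 ± 29.2 TPM in WT at 1 month, and 154 ± 32.8 TPM in 5xFAD and 194 ± 38.9 TPM in WT at 6 months. The ranges of mean ± SD of these 2 genes overlapped in each group, but within a library Kif1a was above Kif1b in 11 of 12, all but 5xFAD at 6 months replicate 3. The 12 transport kinesins together gave 1298 ± 16.8 TPM in 5xFAD and 913 ± 116 TPM in WT at 1 month, and 808 ± 52.0 TPM in 5xFAD and 1031 ± 147 TPM in WT at 6 months. The 9 ciliary kinesins gave 139.6 ± 11.4 TPM in 5xFAD and 101 ± 10.8 TPM in WT at 1 month, most of it from Kif3a and Kif3b. The 12 mitotic kinesins gave 32.3 ± 4.17 TPM in 5xFAD and 43.7 ± 5.99 TPM in WT at 1 month, with Kif22 the highest of them.

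Below Kif1a and Kif1b came Kif21b, Kif21a and the 3 kinesin-1 heavy chains Kif5a, Kif5b and Kif5c. In WT at 1 month, Kif21b (116 ± 9.69 TPM) and Kif21a (114 ± 1.69 TPM) could not be ordered beyond their spread. The ranges of mean ± SD of Kif5a (79.1 ± 12.9 TPM) and Kif5c (64.9 ± 10.7 TPM) overlapped there, but Kif5a was above Kif5c within 3 of 3 of these libraries, and within 0 of 3 of those of 5xFAD at 1 month. The microtubule depolymerase Kif2a (49.1 ± 8.67 TPM) and the endosomal motor Kif13a (49.3 ± 5.83 TPM) were level in the same group. Of the members, 6 did not have enough counts to be tested. Kif12 and Kif2b had 0 counts in every library, which allows up to 0.153 to 0.276 CPM at 3 counts a library, counting error only. Kif28 had 1 count in 1 library, Kif2c ran from 0 to 0.269 CPM, Kif18b from 0 to 0.629 CPM and Kif6 from 0 to 1.75 CPM. The other 33 members, 32 of them motors, passed the filter on low counts.

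**Figure D1:**
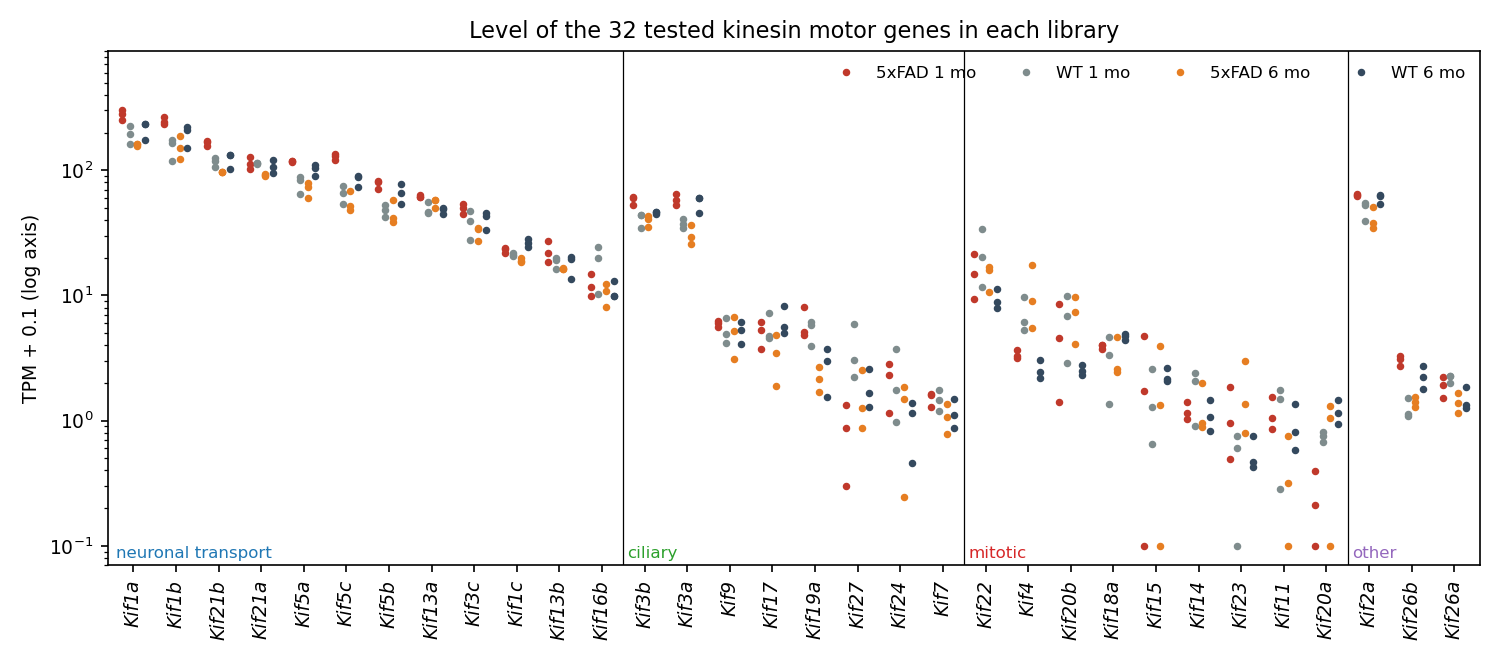
Level of the 32 tested kinesin motor genes in each library, in TPM with 0.1 added on a log axis, grouped by class and ordered by mean level. Each point is 1 library, coloured by group; Kif1a, Kif1b and the other transport motors stand highest, and among the ciliary genes Kif3a and Kif3b stand above the others.

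At 1 month, 8 of the 12 neuronal transport kinesins and both subunits of the ciliary motor kinesin-2 were higher in 5xFAD retinas than in WT, by 0.28 to 0.75 on the log2 scale. Of the 33 tested members, 13 passed the edgeR quasi-likelihood test at an adjusted p below 0.05 (19.6% of all 16233 tested genes passed). Of these, 11 rose (10.7% of all genes rose) and 2 fell (8.91% of all genes fell). By class, 8 of 12 transport kinesins rose, 2 of 8 tested ciliary kinesins rose and 1 fell, 1 of 9 tested mitotic kinesins fell, and 1 of 3 tested other kinesins rose. The median log2 fold change was 0.31 for the transport kinesins, -0.12 for the ciliary, -0.26 for the mitotic and -0.045 for all genes tested. Kinesin transcripts are long, with a median of 4902 nt against 2746 nt over all genes tested, and all 12 transport kinesins lie in the third of genes with the longest transcripts, as do 23 of the 33 tested members. Of those long-transcript genes, 27% rose at 1 month. A correction that took out the dependence of each library's counts on transcript length and GC content gave 6 calls (11.5% of all genes). After it Kif1b and Kif3a rose (4.63% of all genes), and Kif4, Kif27, Kif13b and Kif2a fell (6.87% of all genes). Without 5xFAD replicate 2 the 13 calls became 7 (12.5% of all genes passed), and without WT replicate 2 they also became 7 (11.3% of all genes).

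At 6 months, 4 of the 12 transport kinesins and the kinesin-2 subunit Kif3a were lower in 5xFAD retinas than in WT (log2 fold changes from -0.77 to -0.37), and the mitotic kinesin Kif4 was higher. Of the 33 members, 6 passed the edgeR test (6.38% of all genes), of which 5 fell (3.89% of all genes fell, and 9.24% of the long-transcript genes) and Kif4 rose (2.48% of all genes rose). The 5 that fell were Kif1b, Kif3a, Kif3c, Kif5a and Kif5c. The median log2 fold change was -0.22 for the transport kinesins and 0.0028 for all genes tested. After the length and GC correction 3 members passed (9.55% of all genes), with Kif3a lower (2.35% of all genes) and Kif4 and Kif13b higher (7.21% of all genes). Leaving out the 3 libraries with most ribosomal RNA leaves 1 5xFAD library, assumed to vary like the other groups, and the 6-month calls were not kept there. The median log2 fold change of the tested members was then -0.096, against -0.18 with all 12 libraries. Over all genes tested these medians were -0.025 and 0.0028. Leaving out 5xFAD replicate 1, WT replicate 1 or WT replicate 2 left 2 calls (3.31%, 2.14% and 1.64% of all genes passed, in that order). Leaving out 5xFAD replicate 2 left 3 (3.48% of all genes).

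**Figure D2:**
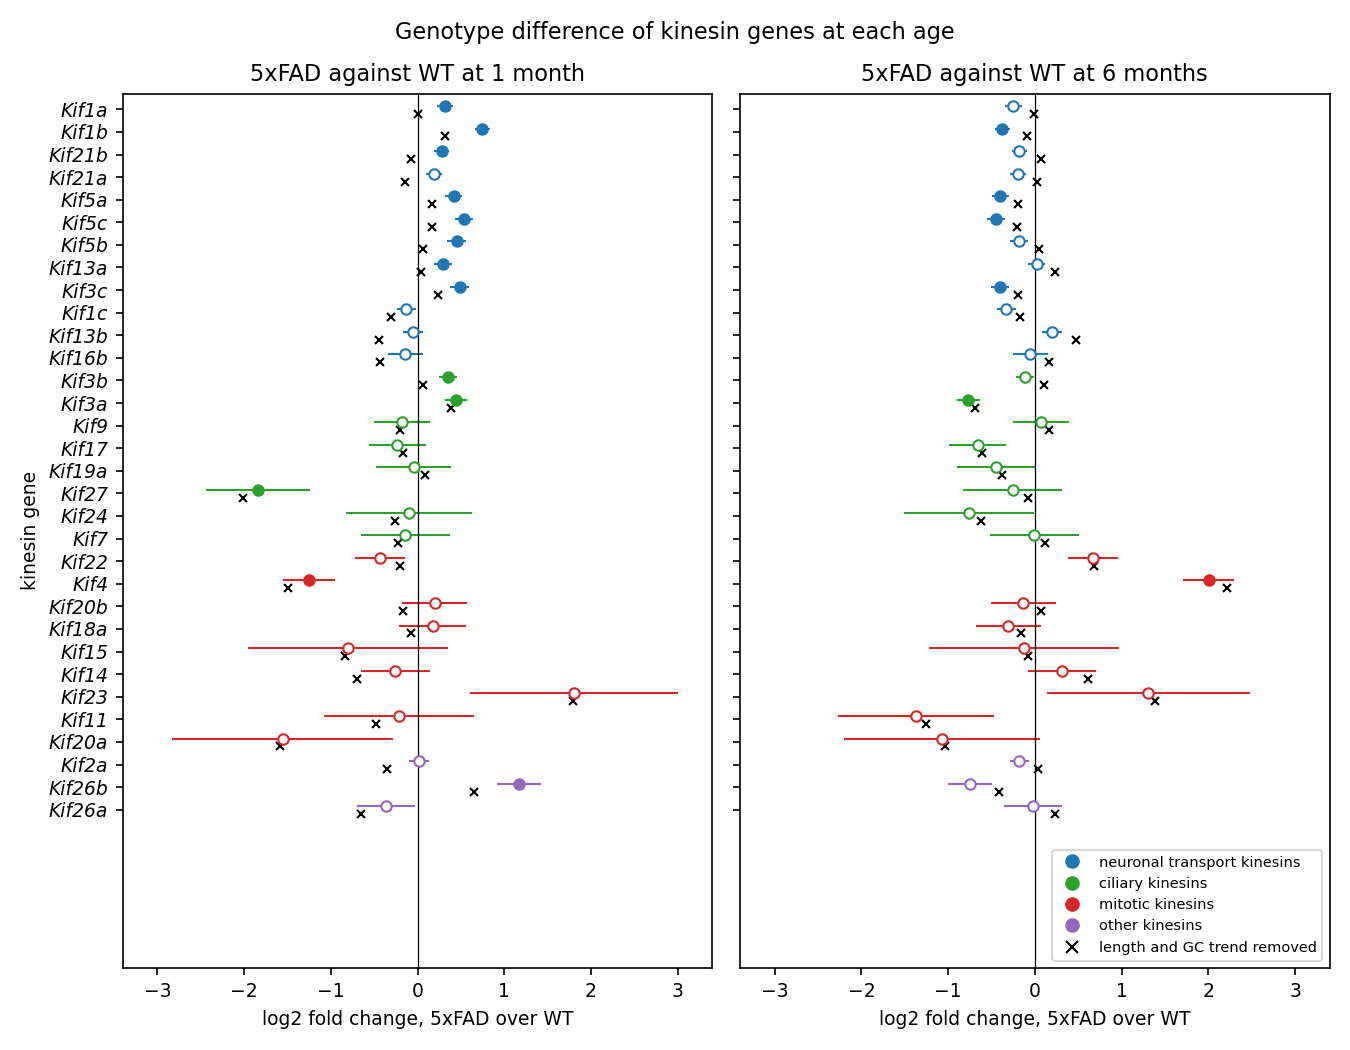
Log2 fold change of 5xFAD over WT for the 32 tested kinesin motor genes at 1 month (left) and 6 months (right). Circles with bars give the edgeR value and its approximate SE, filled where the adjusted p is below 0.05 and open otherwise, and crosses give the value after the length and GC correction. Most transport kinesins lie right of 0 at 1 month and left of 0 at 6 months, and most of their crosses lie nearer to 0, while Kif3a and Kif4 stay away from 0 on both measures.

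Kinesin-1 joins heavy chains from Kif5a, Kif5b or Kif5c with light chains, and it moves mitochondria, vesicles and slowly transported proteins along axons. Kif5a (chr10:127225696-127263348, GRCm38, minus strand), the neuronal heavy chain, had 305, 309 and 304 CPM in 5xFAD retinas at 1 month, against 236, 202 and 248 CPM in WT retinas, and 186, 223 and 234 CPM in 5xFAD retinas at 6 months, against 283, 301 and 264 CPM in WT retinas. Every 5xFAD library was above every WT library at 1 month and below every WT library at 6 months. Kif5a rose at 1 month (log2 fold change 0.42 ± 0.098, adjusted p 0.00365 in edgeR) and fell at 6 months (-0.40 ± 0.097, adjusted p 0.0152). Kif5c (chr2:49619298-49774778, plus strand), also neuronal, had 289, 308 and 296 CPM in 5xFAD retinas at 1 month, against 203, 185 and 230.5 CPM in WT retinas, and 161, 171 and 217 CPM in 5xFAD retinas at 6 months, against 257, 256 and 237 CPM in WT retinas. Its groups did not overlap at either age, and it rose at 1 month (0.53 ± 0.10, adjusted p 0.000873) and fell at 6 months (-0.45 ± 0.10, adjusted p 0.0117). Kif5b, the heavy chain present in most tissues, had 169.6, 179 and 155 CPM in 5xFAD retinas at 1 month, against 127, 113 and 128 CPM in WT retinas, and 109.9, 115 and 147 CPM in 5xFAD retinas at 6 months, against 143, 151 and 129 CPM in WT retinas. It rose at 1 month (0.45 ± 0.11, adjusted p 0.00511), while at 6 months the groups overlapped and the difference did not pass (-0.18 ± 0.11, adjusted p 0.362). After the length and GC correction, none of the 3 passed at 1 month, with log2 fold changes of 0.16 for Kif5a, 0.17 for Kif5c and 0.063 for Kif5b. The 6-month call of Kif5a was lost without 5xFAD replicate 1 or WT replicate 1 or 2 (adjusted p up to 0.0928), and that of Kif5c without 5xFAD replicate 1 or 2 or WT replicate 1 or 2 (adjusted p up to 0.069).

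Kinesin-3 motors carry vesicles fast and far. Kif1a (chr1:93015464-93101951, GRCm38, minus strand) had 799.9, 896 and 913 CPM in 5xFAD retinas at 1 month, against 682, 641 and 773 CPM in WT retinas, and 602, 621 and 560.1 CPM in 5xFAD retinas at 6 months, against 745, 752 and 620.1 CPM in WT retinas. The genotypes did not overlap at 1 month, and Kif1a rose (0.32 ± 0.093, adjusted p 0.0184), whereas its lower level at 6 months did not pass (-0.25 ± 0.093, adjusted p 0.118). The 1-month call was lost without 5xFAD replicate 2 or 3 or WT replicate 2 (adjusted p up to 0.107), and the value after the length and GC correction was -0.00046 (adjusted p 0.998). Kif1b (chr4:149176319-149307693, minus strand) had 1466, 1444 and 1443 CPM in 5xFAD retinas at 1 month, against 894, 796 and 904 CPM in WT retinas, and 984, 954 and 1113 CPM in 5xFAD retinas at 6 months, against 1393, 1396 and 1164 CPM in WT retinas. The 3 WT libraries at 1 month were the lowest of the 12. Kif1b rose at 1 month (0.75 ± 0.089, adjusted p 6.41e-06), was called in every fit that left out 1 library there, and was still higher after the correction (0.32, adjusted p 0.00054). At 6 months it fell (-0.37 ± 0.088, adjusted p 0.0124), but not after the correction (-0.093, adjusted p 0.359) and not without 5xFAD replicate 1 or 2 or WT replicate 1 or 2 (adjusted p up to 0.0796).

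Of the kinesin-3 genes Kif13a, Kif13b, Kif1c and Kif16b, without the correction, Kif13a passed at 1 month and the other 3 at neither age. Kif13a, which carries endosomal and Golgi-derived cargo, averaged 129.98 ± 3.85 CPM in 5xFAD and 106 ± 8.62 CPM in WT at 1 month and rose (0.30 ± 0.10, adjusted p 0.0433), a call lost without 5xFAD replicate 1, 2 or 3 or WT replicate 1 or 2 (adjusted p up to 0.153). Kif13b, which binds the scaffold protein Dlg, averaged 65.0 ± 3.24 CPM in 5xFAD and 67.3 ± 8.28 CPM in WT at 1 month and did not pass (-0.050 ± 0.12, adjusted p 0.813). After the length and GC correction, Kif13b was lower at 1 month, at -0.44 (adjusted p 0.0089), and higher at 6 months, at 0.47 (adjusted p 0.00711). Kif1c, a vesicle motor found in many cell types, gave -0.13 ± 0.11, adjusted p 0.453 at 1 month and -0.33 ± 0.11, adjusted p 0.0764 at 6 months, and Kif16b, an early endosome motor, gave -0.14 ± 0.21, adjusted p 0.687 and -0.052 ± 0.20, adjusted p 0.928, so neither passed at either age. Kif1bp, whose product binds several kinesins and blocks their microtubule contact, read 97.9 to 118 CPM over the 12 libraries and gave 0.0088 ± 0.098, adjusted p 0.965 at 1 month.

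Kif21a and Kif21b are kinesin-4 proteins that slow microtubule growth, and Kif21b also moves along dendrites. Kif21b had 592, 586 and 628 CPM in 5xFAD retinas at 1 month, against 487, 488 and 512 CPM in WT retinas, and 433, 425 and 420.3 CPM in 5xFAD retinas at 6 months, against 509.9, 520.01 and 418 CPM in WT retinas. The genotypes did not overlap at 1 month, and Kif21b rose (0.28 ± 0.086, adjusted p 0.0228). That call was lost without 5xFAD replicate 1, 2 or 3 or WT replicate 2 (adjusted p up to 0.0997), and the value after the length and GC correction was -0.077 (adjusted p 0.527). Kif21a had 252, 239 and 237 CPM in 5xFAD retinas at 1 month, against 215, 231 and 191 CPM in WT retinas, and 205, 209.9 and 231 CPM in 5xFAD retinas at 6 months, against 252, 259.8 and 228 CPM in WT retinas, and it passed at neither age (0.19 ± 0.091, adjusted p 0.148 at 1 month and -0.20 ± 0.091, adjusted p 0.214 at 6 months).

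Kif3a and Kif3b pair, with the accessory subunit Kifap3, into heterotrimeric kinesin-2, the anterograde motor of cilia and of the photoreceptor connecting cilium. Kif3a (chr11:53567379-53601967, GRCm38, plus strand) had 63.5, 75.5 and 74.6 CPM in 5xFAD retinas at 1 month, against 52.4, 52.3 and 52.3 CPM in WT retinas, and 38.7, 37.2 and 52.9 CPM in 5xFAD retinas at 6 months, against 78.2, 76.2 and 65.1 CPM in WT retinas. The 3 WT libraries at 1 month were nearly equal, every 5xFAD library there was above them, and at 6 months every 5xFAD library was below every WT library. Kif3a rose at 1 month (0.44 ± 0.13, adjusted p 0.0181) and fell at 6 months (-0.77 ± 0.13, adjusted p 0.000956). Its transcripts are not among the long ones (3041 nt on average), and both calls held after the length and GC correction, at 0.39 (adjusted p 0.0238) and -0.69 (adjusted p 0.00029). The 1-month call was lost without 5xFAD replicate 2 or 3 or WT replicate 2 (adjusted p up to 0.0825). The 6-month call was kept in all 6 fits that left out 1 library, but without the 3 libraries with most ribosomal RNA the value was -0.47 (adjusted p 0.128), with 1 5xFAD library left at 52.9 CPM.

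Kif3b, the partner of Kif3a, had 144, 138 and 123 CPM in 5xFAD retinas at 1 month, against 111, 96.3 and 110.2 CPM in WT retinas, and 112, 117 and 92.9 CPM in 5xFAD retinas at 6 months, against 114, 115 and 119 CPM in WT retinas. It rose at 1 month (0.35 ± 0.10, adjusted p 0.0193) and did not pass at 6 months (-0.11 ± 0.10, adjusted p 0.603). The 1-month call was lost without 5xFAD replicate 1 or 2 or WT replicate 2 (adjusted p up to 0.111) and after the length and GC correction (0.063, adjusted p 0.783). Kif3c, a neuronal kinesin-2 that pairs with itself or with Kif3a, had 98.2, 113 and 107 CPM in 5xFAD retinas at 1 month, against 76.6, 67.2 and 82.9 CPM in WT retinas, and 70.9, 67.8 and 77.9 CPM in 5xFAD retinas at 6 months, against 103, 97.8 and 85.9 CPM in WT retinas. Its groups did not overlap at either age, and it rose at 1 month (0.49 ± 0.11, adjusted p 0.00257) and fell at 6 months (-0.40 ± 0.11, adjusted p 0.0275), the later call being lost without 5xFAD replicate 1 or 2 or WT replicate 1 or 2 (adjusted p up to 0.138). The antisense gene 1110002L01Rik overlaps Kif3c and had 78.8, 71.8 and 79.9 CPM in 5xFAD retinas at 1 month, against 63.0, 74.0 and 60.6 CPM in WT retinas. The preparation did not keep strand, so reads of the shared stretch cannot be told apart between Kif3c and this gene. Kifap3 itself gave 0.22 ± 0.097, adjusted p 0.121 at 1 month and -0.035 ± 0.096, adjusted p 0.889 at 6 months, and did not pass.

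The remaining ciliary kinesins were near the lower limit of measurement. Kif17, a homodimeric kinesin-2 of cilia and dendrites, had 6.51, 4.79 and 6.64 CPM in 5xFAD retinas at 1 month, against 6.39, 5.93 and 8.82 CPM in WT retinas, and 7.16, 2.91 and 4.69 CPM in 5xFAD retinas at 6 months, against 8.89, 6.16 and 8.26 CPM in WT retinas. Its groups overlapped at both ages, it did not pass (-0.24 ± 0.33, adjusted p 0.669 at 1 month and -0.66 ± 0.33, adjusted p 0.253 at 6 months), and it overlaps Sh2d5 on the same strand. Kif27, a relative of Kif7 with a role in motile cilia in mouse, had 1.65, 0.276 and 1.62 CPM in 5xFAD retinas at 1 month, against 5.04, 4.13 and 3.60 CPM in WT retinas. It fell at 1 month (-1.84 ± 0.60, adjusted p 0.0324), also after the correction (-2.01, adjusted p 0.0277), but not without 5xFAD replicate 2 or WT replicate 1 or 2 (adjusted p up to 0.133). Of the 11 motile cilium markers listed, 10 were matched in the gene table and 7 could be tested. The 10 summed to 73.9 to 78.2 CPM in 5xFAD and 83.2 to 106 CPM in WT at 1 month. By edgeR 1 of the 7 tested, Ccdc39, was lower at 1 month (-0.76 ± 0.17, adjusted p 0.00238), where 8.91% of all genes were lower. The other 6 did not pass. The median log2 fold change of the 7 was -0.0049, against -0.045 over all genes tested. Foxj1 had 2.69, 5.34 and 4.85 CPM in 5xFAD and 4.45, 5.03 and 3.42 CPM in WT. The part of these markers in the Kif27 value was not tested. Kif7, which acts in Hedgehog signalling at the cilium tip, Kif9, a motile cilium motor, Kif19a, which limits cilium length in mouse, and Kif24, which acts at centrioles, did not pass at either age. Their log2 fold changes ran from -0.18 to -0.044 at 1 month and from -0.76 to 0.067 at 6 months.

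Kif4 was the mitotic kinesin with the clearest difference. It encodes a chromokinesin that condenses chromosomes and shapes the central spindle, and it is also expressed in young neurons. Kif4 (chrX:100625737-100727214, GRCm38, plus strand) had 7.38, 6.53 and 3.86 CPM in 5xFAD retinas at 1 month, against 15.7, 15.01 and 11.6 CPM in WT retinas, and 32.8, 21.3 and 12.8 CPM in 5xFAD retinas at 6 months, against 5.12, 6.47 and 4.97 CPM in WT retinas. At 1 month every 5xFAD library was below every WT library, and at 6 months every 5xFAD library was above every WT library. Kif4 fell at 1 month (log2 fold change -1.25 ± 0.30, adjusted p 0.00444 in edgeR) and rose at 6 months (2.01 ± 0.29, adjusted p 0.000244). Both calls were kept in all 6 fits that left out 1 library and after the length and GC correction (-1.49, adjusted p 0.00222 at 1 month and 2.22, adjusted p 6.6e-05 at 6 months). At 6 months the 5xFAD libraries followed the order of their ribosomal RNA share (1.11%, 0.446% and 0.0525% in replicates 1, 2 and 3). Without the 3 libraries with most ribosomal RNA the 6-month value was 1.20 (adjusted p 0.0772), from the 1 5xFAD library at 12.8 CPM, and the 1-month value was -1.21 (adjusted p 0.0058).

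The Kif4 signal came from 1 transcript, Kif4-201, which took 96.5 ± 6.07% of the gene's counts in 5xFAD and 97.9 ± 3.55% in WT at 1 month. The pseudogene Kif4-ps had 0 CPM in every library. Pdzd11, which overlaps Kif4 on the opposite strand, had 22.0, 24.6 and 20.5 CPM in 5xFAD retinas at 1 month, against 26.8, 25.4 and 28.00 CPM in WT retinas, and 36.1, 29.4 and 38.0 CPM in 5xFAD retinas at 6 months, against 26.0, 26.3 and 32.3 CPM in WT retinas. Its ranges therefore lay below WT at 1 month and overlapped WT at 6 months, and its part in the Kif4 counts was not tested. Of the markers of dividing cells, the defining genes Mki67 and Top2a had at most 0.629 and 0.0840 CPM in any library. The 14 cycling markers, of which 8 could be tested, summed to 40.1 to 58.7 CPM in 5xFAD and 50.3 to 67.8 CPM in WT at 1 month, and 67.3 to 89.2 CPM in 5xFAD and 60.7 to 76.3 CPM in WT at 6 months. Most of the 6-month sums, which averaged 79.0 CPM in 5xFAD and 68.0 CPM in WT, came from Ccna2 (71.1 and 59.6 CPM). By edgeR 0 of the 8 passed at either age, and 0 had an unadjusted p below 0.05.

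The other 8 tested mitotic kinesins did not pass at either age. They were Kif11, which holds the spindle poles apart, its partner Kif15, the chromosome-positioning motors Kif18a and Kif22, and the cytokinesis motors Kif14, Kif20a, Kif20b and Kif23. Kif22 was the highest of them and read 3.82 to 9.08 CPM over the 12 libraries, with a log2 fold change of -0.43 ± 0.29 at 1 month and 0.67 ± 0.29 at 6 months. Kif11, Kif15, Kif20a and Kif23 each had 0 counts in at least 1 library and SEs between 0.86 and 1.27 on the log2 scale, so smaller differences were not detectable at this depth. Kif18a shares sequence with Mettl15 and Kif20a with Cdc23 on opposite strands.

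Most mitotic members shared a promoter feature that their selection did not use. The letters TTTGAA or their reverse complement TTCAAA, the core of the cell cycle homology region of cell cycle promoters, stood in the window from 250 bases before to 50 after the start in 9 of 11 mitotic members with a RefSeq promoter (81.8%). They stood in 1 of 8 transport members (12.5%), 1 of 8 ciliary members and 17.9% of all 32851 promoters of the same length. CCAAT or ATTGG, the CCAAT box, was in 7 of 11 mitotic members (63.6%), 5 of 8 ciliary members (62.5%) and 37.4% of all promoters. Of the 39 members, 31 were matched to a RefSeq promoter on GRCm38.p6. The promoters of Kif4, the member with opposite genotype differences at the 2 ages, of Kif11, a mitotic gene that did not pass, and of Kif3a, the ciliary member with opposite differences, are shown 5′ to 3′ with both motifs in capitals, from chrX:100625815-100626114, chr19:37376132-37376431 and chr11:53567119-53567418, all on the plus strand.
Kif4: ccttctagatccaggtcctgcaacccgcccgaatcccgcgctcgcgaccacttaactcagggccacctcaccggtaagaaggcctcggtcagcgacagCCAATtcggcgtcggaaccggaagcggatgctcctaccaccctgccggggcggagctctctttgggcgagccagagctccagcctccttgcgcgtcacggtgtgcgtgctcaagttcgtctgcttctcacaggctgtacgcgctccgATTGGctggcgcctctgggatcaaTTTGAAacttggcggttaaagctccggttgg
Kif11: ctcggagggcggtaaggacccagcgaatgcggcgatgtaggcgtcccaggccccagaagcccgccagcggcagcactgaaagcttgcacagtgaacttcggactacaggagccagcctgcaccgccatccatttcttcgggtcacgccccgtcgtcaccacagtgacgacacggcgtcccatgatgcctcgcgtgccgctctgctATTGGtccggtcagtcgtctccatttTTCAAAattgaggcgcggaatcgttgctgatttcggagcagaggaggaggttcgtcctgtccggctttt
Kif3a: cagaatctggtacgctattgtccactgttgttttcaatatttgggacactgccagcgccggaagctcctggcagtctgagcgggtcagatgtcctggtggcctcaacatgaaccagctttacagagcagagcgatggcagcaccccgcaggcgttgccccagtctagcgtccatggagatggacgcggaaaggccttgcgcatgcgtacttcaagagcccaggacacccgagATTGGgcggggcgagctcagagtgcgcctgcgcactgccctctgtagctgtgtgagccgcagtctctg
Kif4 and Kif11 both hold each motif, while the Kif3a window holds a CCAAT box alone. A motif match describes the letters and is no evidence of binding in these retinas.

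Among the other kinesins, Kif26b, an atypical family member that binds microtubules with little or no motor activity, had 18.2, 14.9 and 16.0 CPM in 5xFAD retinas at 1 month, against 6.13, 7.01 and 8.73 CPM in WT retinas, and 4.78, 8.65 and 9.30 CPM in 5xFAD retinas at 6 months, against 12.7, 14.6 and 11.02 CPM in WT retinas. The genotypes did not overlap at either age. Kif26b rose at 1 month (1.17 ± 0.25, adjusted p 0.00213) and was lower at 6 months without passing (-0.75 ± 0.25, adjusted p 0.076). After the length and GC correction the 1-month value was 0.65 (adjusted p 0.0887). Its mean transcript length, 13572 nt, was the longest of the tested members. Kif26a, its paralogue, gave -0.37 ± 0.33, adjusted p 0.487 at 1 month and -0.017 ± 0.34, adjusted p 0.984 at 6 months. Kif2a, a depolymerase that prunes axon branches, had 107, 112 and 104 CPM in 5xFAD retinas at 1 month, against 118, 99.7 and 101 CPM in WT retinas, and 81.7, 89.1 and 116 CPM in 5xFAD retinas at 6 months, against 110.2, 109 and 105 CPM in WT retinas. The groups overlapped at 1 month and Kif2a did not pass (0.018 ± 0.11, adjusted p 0.939 at 1 month and -0.18 ± 0.11, adjusted p 0.405 at 6 months), although after the correction it was lower at 1 month, at -0.35 (adjusted p 0.00838).

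**Figure D3:**
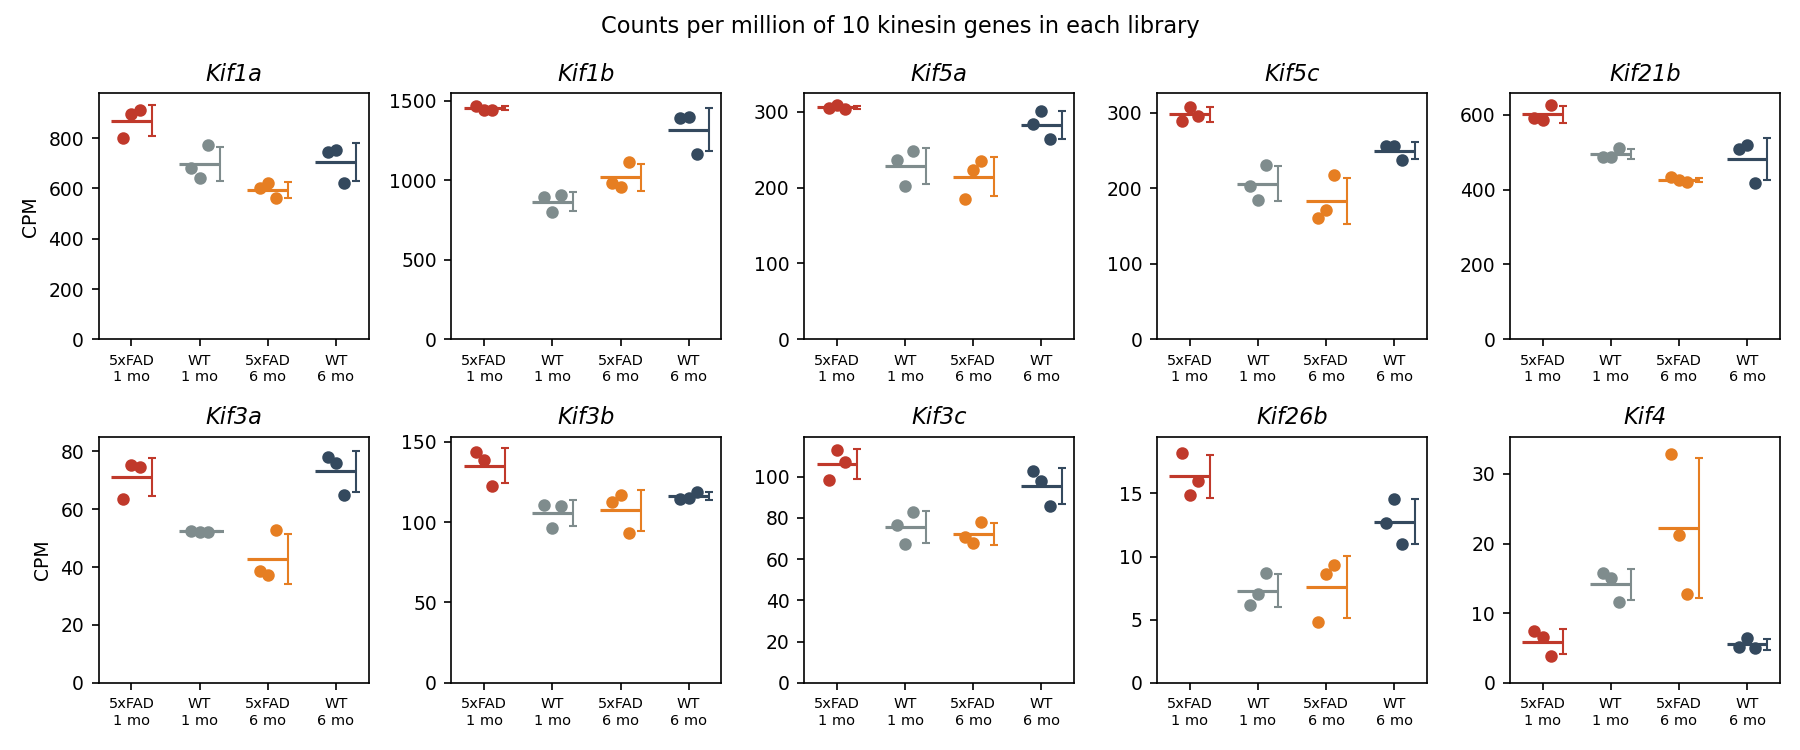
CPM of 10 kinesin genes in each library, with points for libraries, a horizontal line for the group mean and a bar for its SD (n = 3). Kif5a, Kif5c and Kif3c are highest in 5xFAD at 1 month, and Kif4 has its highest mean and its highest library, 32.8 CPM, in 5xFAD at 6 months.

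The age comparisons use the same libraries as the genotype comparisons, and each shares a group with both genotype comparisons. Between the ages, 7 of 12 transport kinesins were lower at 6 months than at 1 month in 5xFAD, while 3 of 12 were higher in WT. In 5xFAD, 12 members passed (23.2% of all genes), of which 11 were lower at 6 months (12.4% of all genes, and 30.4% of the long-transcript genes) and Kif4 was higher (10.8% of all genes). In WT, 6 members passed (10.5% of all genes), of which 5 were higher at 6 months (6.01% of all genes, and 12.7% of the long-transcript genes) and Kif4 was lower (4.49% of all genes). Beside the transport kinesins, the ciliary genes Kif3a, Kif3b and Kif19a and the atypical Kif26b were lower at 6 months in 5xFAD, and Kif3a and Kif26b were higher at 6 months in WT. After the length and GC correction 6 members passed in 5xFAD (15.7% of all genes), where Kif13a, Kif13b and Kif4 were higher at 6 months (10.7% of all genes) and Kif19a, Kif3a and Kif5c were lower (5.06% of all genes). In WT 4 passed (12.3% of all genes), where Kif1b and Kif3a were higher at 6 months (4.58% of all genes) and Kif13b and Kif4 were lower (7.76% of all genes). The median log2 change of the transport kinesins was then -0.028 in 5xFAD and 0.038 in WT, against -0.46 in 5xFAD and 0.20 in WT without the correction. Over all genes tested the medians were 0.078 in 5xFAD and -0.061 in WT with the correction, and 0.026 and -0.012 without it.

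In 5xFAD, Kif5c fell by 0.70 on the log2 scale between 1 and 6 months (-0.70 ± 0.10, adjusted p 5.09e-05) and Kif3a by 0.73 (-0.73 ± 0.13, adjusted p 0.000333), and both were still lower after the correction, at -0.30 (adjusted p 0.011) and -0.67 (adjusted p 0.000203). Kif1a (-0.55 ± 0.093), Kif21b (-0.50 ± 0.086), Kif1b (-0.51 ± 0.088), Kif5a (-0.51 ± 0.098), Kif3c (-0.55 ± 0.11), Kif5b (-0.43 ± 0.11) and Kif26b (-1.11 ± 0.25) also fell, each called in every fit that left out 1 library, but these 7 did not pass after the correction. Kif3b (-0.33 ± 0.10, adjusted p 0.0236) fell too, but not without replicate 1 or 2 at 1 month or replicate 3 at 6 months (adjusted p up to 0.105). Kif19a had 1.62, 1.37 and 2.41 CPM in 5xFAD retinas at 6 months, against 4.43, 4.69 and 5.65 CPM at 1 month, and fell (-1.44 ± 0.45, adjusted p 0.0243), also after the correction (-1.43, adjusted p 0.0338), but not without replicate 2 or 3 at 1 month or replicate 1 or 2 at 6 months (adjusted p up to 0.0845). The fall of Kif19a was not particular to 5xFAD. WT retinas had 1.28, 2.90 and 3.17 CPM at 6 months, against 4.54, 7.19 and 3.51 CPM at 1 month. These ranges did not overlap, but Kif19a passed neither in WT nor in the interaction of genotype and age. Kif4 went the other way and rose in 5xFAD (1.91 ± 0.30, adjusted p 8.14e-05). Without the 3 libraries with most ribosomal RNA, the calls of Kif3a, Kif5b, Kif26b and Kif19a in 5xFAD were lost, though each kept its direction. The 1 5xFAD library left at 6 months in that fit had 52.9, 147, 9.30 and 2.41 CPM for these genes, in that order.

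In WT, Kif1b had 1393, 1396 and 1164 CPM at 6 months, against 894, 796 and 904 CPM at 1 month, and rose (0.61 ± 0.089, adjusted p 0.000137), also after the correction (0.37, adjusted p 0.000114). Kif3a rose (0.48 ± 0.13, adjusted p 0.0178), before and after correction (0.41, adjusted p 0.0155), and Kif4 fell (-1.35 ± 0.29, adjusted p 0.00445), again on both measures (-1.51, adjusted p 0.00172). Kif26b (0.81 ± 0.25), Kif3c (0.34 ± 0.11) and Kif5a (0.31 ± 0.097) rose as well, but not after the correction. The calls of Kif3a and Kif5a were lost without WT at 1 month replicate 2 or WT at 6 months replicate 1 or 2, and those of Kif26b and Kif3c also without WT at 1 month replicate 1 (adjusted p up to 0.234 over these genes). Without WT at 1 month replicate 2, or WT at 6 months replicate 1 or 2, the 6 calls became 2 (5.02%, 5.03% and 4.63% of all genes passed, in that order). With all 12 libraries, Kif3a and Kif4 were the members that passed in all 5 comparisons both before and after correction.

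Whether the genotype difference itself changed with age was tested as the interaction of genotype and age, which is the log2 fold change at 6 months minus that at 1 month. Of the 33 members, 13 passed in edgeR (25% of all genes). Of these, 11 had a lower difference at 6 months (13.3% of all genes, and 32.2% of the long-transcript genes) and 2, Kif4 and Kif22, a higher one (11.7% of all genes). Kif4 had the largest value (3.26 ± 0.42, adjusted p 6.57e-06), and Kif26b (-1.91 ± 0.36, adjusted p 0.000367), Kif3a (-1.21 ± 0.18, adjusted p 3.94e-05), Kif1b (-1.12 ± 0.13, adjusted p 1.41e-06), Kif5c (-0.98 ± 0.15, adjusted p 3.65e-05), Kif3c (-0.89 ± 0.15, adjusted p 0.000166) and Kif5a (-0.82 ± 0.14, adjusted p 0.000129) had the 6 largest negative values. After the length and GC correction 9 members passed (19.9% of all genes), 3 with a higher difference (13.4% of all genes) and 6 with a lower one (6.47% of all genes). Each of these 7 genes was among them with the same sign, at 3.71 for Kif4, -1.07 for Kif26b, -1.08 for Kif3a, -0.41 for Kif1b, -0.37 for Kif5c, -0.43 for Kif3c and -0.36 for Kif5a. Kif13b (0.91) and Kif2a (0.38) passed after the correction alone. Kif22, one of the low mitotic genes, gave 1.10 ± 0.41, adjusted p 0.049, and its call was lost in 11 of 12 fits that left out 1 library, all but WT at 6 months replicate 3 (adjusted p up to 0.177). The call of Kif21a was lost without 5xFAD at 1 month replicate 1 or 2 or 5xFAD at 6 months replicate 2 or WT at 6 months replicate 2 (adjusted p up to 0.0738). That of Kif3b was lost without 5xFAD at 1 month replicate 1 or 2 or WT at 1 month replicate 2 (adjusted p up to 0.0658). The value of Kif5b, -0.63 ± 0.15 in the counts as deposited, was -0.018 after the correction. The median over all genes tested was 0.059 in the counts as deposited and 0.14 after the correction.

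**Figure D4:**
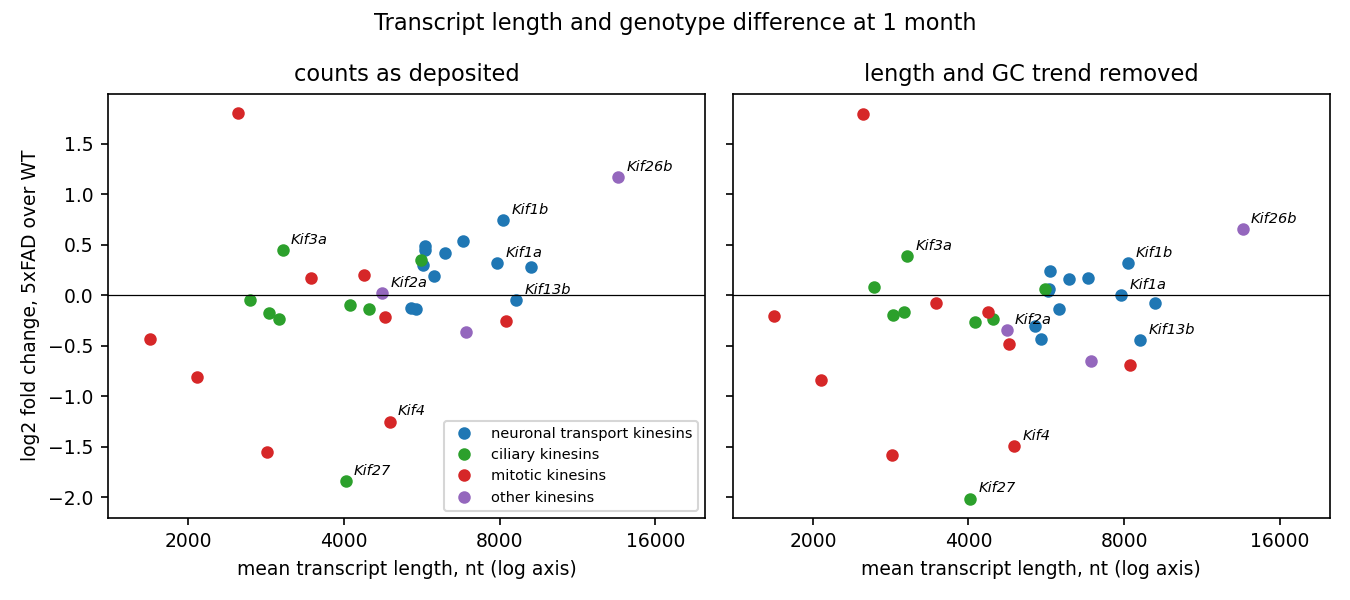
Log2 fold change of 5xFAD over WT at 1 month against mean transcript length (nt, log axis) for the 32 tested kinesin motor genes, with the counts as deposited (left) and after the correction (right). Each point is 1 gene, coloured by class. The transport kinesins are among the longest. On the left most are above 0, and on the right they lie around 0, with Kif1b (0.32) above it and Kif13b below. Of the other classes, Kif3a (0.39) and Kif26b lie above 0 on the right, and Kif2a, Kif4 (-1.49) and Kif27 (-2.01) below.

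Kinesin transcripts were examined for exon choice. The table held 240 transcripts of the 39 genes, of which 95 could be tested. At 1 month 5 passed in edgeR and all 5 rose (2.52% of all transcripts tested passed). At 6 months 3 passed and all 3 fell (0.488% of all transcripts). Each of the 3 was among the 5 that rose at 1 month. RSEM shares reads between transcripts of 1 gene by model, so these values depend on the annotation. The length and GC correction was applied to genes alone. Transcripts were tested neither with it nor without the 3 libraries with most ribosomal RNA. Leaving out 1 library left between 1 and 3 calls at 1 month, the lowest without WT replicate 2. At 6 months 0 calls were left without 5xFAD replicate 1 or 2 or WT replicate 1 or 2, where 15 to 18 transcripts had an unadjusted p below 0.05. The share of all transcripts that passed in these fits is not given here, so these counts cannot be set against it.

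Kif1a-202 and Kif1a-204 differ in a small exon at the same place, exon 37 of 48 in each, and Kif1a-204 carried most of the gene's counts. Kif1b-207, a short transcript of 3391 nt over the 3′ part of Kif1b, and Kif21a-202 each hold a small exon that most other coding transcripts of the gene lack. The Kif21a-202 exon is also held by Kif21a-203. Exons of 3 called transcripts are shown, with that of Kif1a-204 beside Kif1a-202 for comparison. Capitals mark the exon and lower case the 15 flanking bases of the spliced transcript on each side, read 5′ to 3′ on the minus strand of GRCm38. The exons lie at chr1:93026832-93026855 (24 bases), chr1:93034546-93034572 (27 bases), chr4:149195473-149195499 (27 bases) and chr15:90976471-90976509 (39 bases), each a multiple of 3 bases long.
Kif1a-204: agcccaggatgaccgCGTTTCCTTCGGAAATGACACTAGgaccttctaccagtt
Kif1a-202: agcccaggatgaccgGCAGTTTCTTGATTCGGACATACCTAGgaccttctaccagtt
Kif1b-207: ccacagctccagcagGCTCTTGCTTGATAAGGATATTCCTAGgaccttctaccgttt
Kif21a-202: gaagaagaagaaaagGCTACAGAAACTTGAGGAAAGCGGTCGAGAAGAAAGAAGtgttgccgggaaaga
The 2 Kif1a transcripts share all 15 flanking bases on each side. The exon of Kif1b-207 matched that of Kif1a-202 in 20 of 27 bases, and their downstream flanks in 13 of 15.

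Kif1b-207 had 95.1, 104 and 147 CPM in 5xFAD retinas at 1 month, against 20.0, 15.3 and 10.3 CPM in WT retinas, and 20.8, 29.2 and 26.1 CPM in 5xFAD retinas at 6 months, against 64.8, 94.3 and 60.6 CPM in WT retinas. The groups did not overlap at either age. It rose at 1 month (log2 fold change 2.92 ± 0.29, adjusted p 0.00312 in edgeR) and fell at 6 months (-1.53 ± 0.28, adjusted p 0.0496). As a share of Kif1b counts it was 18.6 ± 3.20% in 5xFAD and 3.18 ± 1.02% in WT at 1 month, and 6.08 ± 2.34% in 5xFAD and 13.2 ± 2.66% in WT at 6 months (SD, n = 3 each). Kif1a-202 had 49.6, 30.4 and 62.8 CPM in 5xFAD retinas at 1 month, against 10.8, 10.6 and 17.5 CPM in WT retinas, and 4.70, 9.08 and 8.49 CPM in 5xFAD retinas at 6 months, against 49.3, 56.3 and 26.7 CPM in WT retinas. Again the groups did not overlap at either age, and it rose at 1 month (1.87 ± 0.39, adjusted p 0.0366) and fell at 6 months (-2.57 ± 0.40, adjusted p 0.0284). Kif1a-204 took 83.4 ± 1.96% of Kif1a counts in 5xFAD and 93.6 ± 1.95% in WT at 1 month, and 95.4 ± 0.183% in 5xFAD and 82.4 ± 6.73% in WT at 6 months. Kif1a-203 had 443.06, 214.35 and 474.46 expected counts in 5xFAD retinas at 1 month, against 0, 0 and 0 in WT retinas (adjusted p 0.0174). At 6 months it had 0.03, 0 and 0 in 5xFAD retinas, against 830.99, 958.88 and 104.76 in WT retinas (adjusted p 0.037). How RSEM divided shared reads between the Kif1a transcripts was not tested, and no fold change is given for Kif1a-203. WT at 6 months replicate 3 had the shortest mean transcript length behind the counts of its group (3700 nt, against 4013 and 4019 nt). It also had the lowest Kif1a-202 and Kif1a-203 of that group. The part of this length in the transcript values was not tested.

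Kif21a-202 had 97.8, 118 and 93.0 CPM in 5xFAD retinas at 1 month, against 44.3, 37.7 and 52.3 CPM in WT retinas, and 65.9, 63.5 and 43.6 CPM in 5xFAD retinas at 6 months, against 122, 112 and 92.4 CPM in WT retinas. It rose at 1 month (1.20 ± 0.19, adjusted p 0.0137), with groups apart, and did not pass at 6 months (-0.92 ± 0.19, adjusted p 0.0697). The gene Kif21a itself did not pass at 1 month. Kif2a-202 had 139.49, 21.14 and 121.23 expected counts in 5xFAD retinas at 1 month, against 0, 0 and 0 in WT retinas, and passed (adjusted p 0.0464). The main Kif2a transcript, Kif2a-201, had 919.75, 805.99 and 778.28 expected counts in 5xFAD retinas, against 1316.58, 1047.96 and 802.48 in WT retinas, so the groups overlapped.

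**Figure D5:**
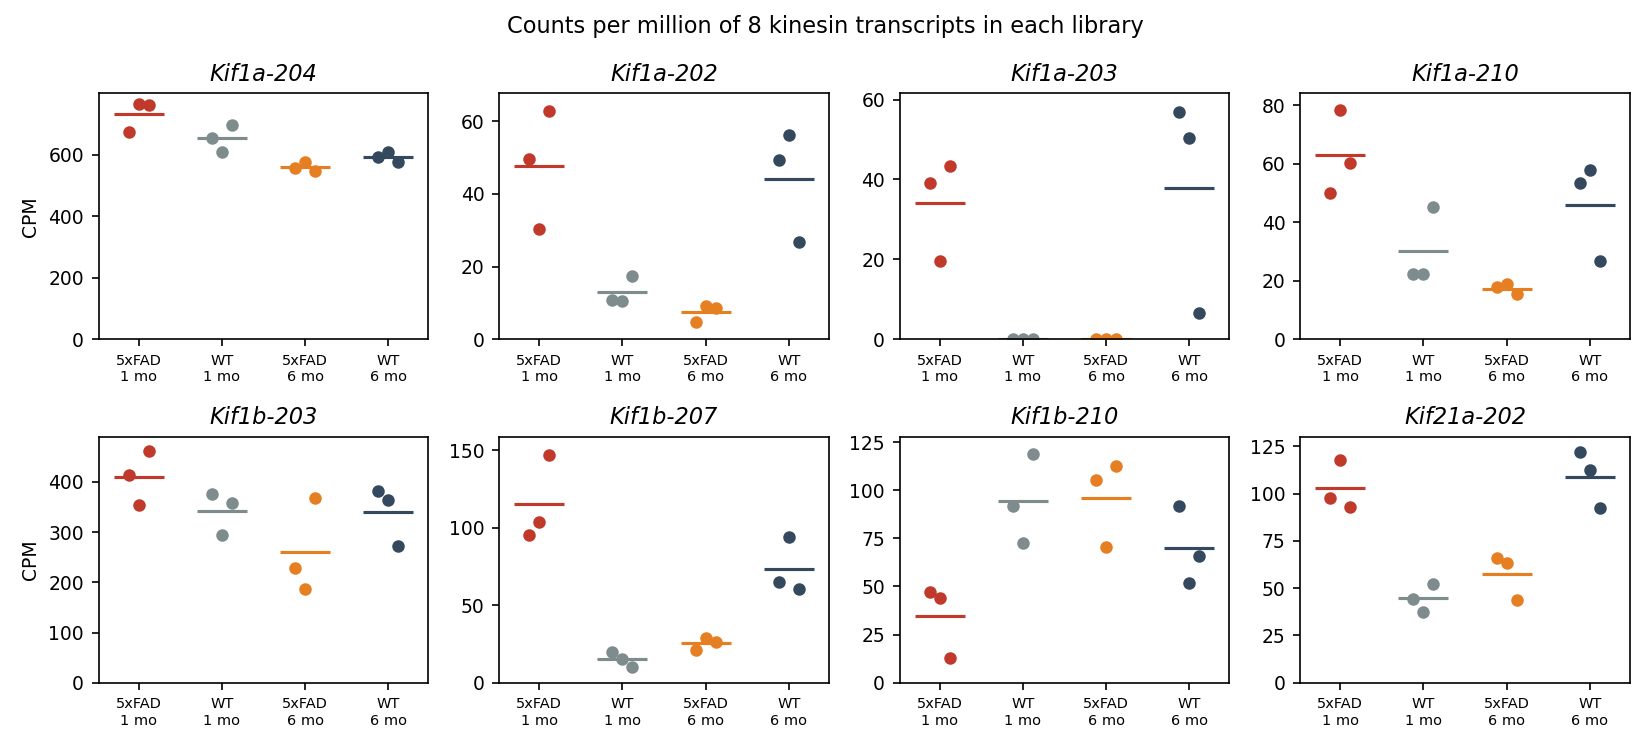
CPM of 8 kinesin transcripts in each library, with points for libraries and a horizontal line for the group mean. Kif1b-207 and Kif1a-202 are high in 5xFAD at 1 month and in WT at 6 months and low in the other 2 groups, while Kif1a-204, the main Kif1a transcript, varies far less in proportion.

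Transcripts annotated as retaining an intron were listed for 25 kinesin genes (68 transcripts). Their share of the gene's counts could be tested in 8 genes, of 4772 genes in all. In edgeR 0 of 8 passed at 1 month, where 2 had an unadjusted p below 0.05 (2.89% of all genes passed), and 0 of 8 passed at 6 months, where 3 had an unadjusted p below 0.05 (0.189% of all genes passed). For Kif1b the share was 8.68, 9.45 and 3.12% in 5xFAD retinas at 1 month, against 17.7, 18.1 and 23.4% in WT retinas. The ranges did not overlap, and the difference missed the threshold (log2 odds ratio -1.82 ± 0.44, adjusted p 0.0565). At 6 months it was 26.9, 21.9 and 19.1% in 5xFAD retinas, against 15.2, 9.21 and 14.9% in WT retinas (0.98 ± 0.43, adjusted p 0.373). With a higher minimum, a mean of 50 counts, 2 kinesin genes were left, of which 1 passed at 1 month and 0 at 6 months. The share of all genes that passed at this minimum is not given here, so these counts cannot be set against it. The main such transcript, Kif1b-210, took 5.77 ± 3.34% of Kif1b counts in 5xFAD and 19.5 ± 3.14% in WT at 1 month.

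Genes that work with these motors were read against all genes tested, of which 10.7% rose and 8.91% fell at 1 month, and 2.48% rose and 3.89% fell at 6 months. With the length and GC correction these shares were 4.63% and 6.87% at 1 month, and 7.21% and 2.35% at 6 months. Kinesin light chains link Kif5 heavy chains to cargo, and among them and Kifap3, 1 of 5 tested genes fell at 1 month, Klc3 (-0.42 ± 0.13, adjusted p 0.0215 in edgeR), and at 6 months 0 of 5 passed and 1 had an unadjusted p below 0.05. Of the 24 cargo adaptors, 8 rose at 1 month. They included Kidins220 (0.66 ± 0.098, adjusted p 6.03e-05), which is carried by kinesin-1, Madd (0.47 ± 0.081, adjusted p 0.000249), which links Kif1a and Kif1b to vesicles, Lin7a (0.94 ± 0.18, adjusted p 0.000776), which is part of the Kif17 cargo complex, and Syt11 (0.52 ± 0.10, adjusted p 0.00104). At 6 months 5 of 24 adaptors fell, among them Apba1 (-0.64 ± 0.12, adjusted p 0.00172), Madd (-0.43 ± 0.081, adjusted p 0.00231), Syt11 (-0.45 ± 0.10, adjusted p 0.0107) and Lin7a (-0.71 ± 0.18, adjusted p 0.0204). After the correction 5 adaptors were higher and 1 lower at 1 month, and 3 were higher and 4 lower at 6 months, and the 4 named at each age passed with the same sign. The median log2 fold change of the adaptors was 0.13 at 1 month and -0.031 at 6 months (-0.045 and 0.0028 over all genes). After the correction it was -0.0063 and 0.077 (-0.048 and 0.090 over all genes). Klc3 did not pass at 1 month after the correction (-0.20, adjusted p 0.152). Of the 4 C-terminal kinesins, which walk to minus ends, Kifc2 fell at 1 month (-0.40 ± 0.11, adjusted p 0.014) and at 6 months 0 of 4 passed and 1 had an unadjusted p below 0.05.

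Dynein runs the opposite way, and its genes were read against the same shares of all genes. Of 9 genes of cytoplasmic dynein 1, the motor heavy chain Dync1h1 rose at 1 month (0.30 ± 0.090, adjusted p 0.0192) and the light chain Dynlrb1 fell (-0.42 ± 0.13, adjusted p 0.0272), and at 6 months Dynll2 rose (0.37 ± 0.082, adjusted p 0.00903). After the correction the direction of Dync1h1 at 1 month turned (-0.22, adjusted p 0.012), it was higher at 6 months (0.39, adjusted p 0.00013), and Dynlrb1 did not pass at 1 month (-0.077, adjusted p 0.716). Of 17 dynactin and dynein cofactor genes 4 rose and 3 fell at 1 month, against 1 and 0 after the correction. Hook3, an adaptor that activates dynein, had the smallest p (1.20 ± 0.11, adjusted p 3.92e-07 at 1 month), and at 6 months it fell (-0.83 ± 0.11, adjusted p 4.53e-05), with both calls kept after the correction (0.48, adjusted p 7.75e-05 and -0.43, adjusted p 0.000457). Of 12 tested tubulin genes, Tubb4b (-0.34 ± 0.096, adjusted p 0.0156) and Tubb3 (-0.39 ± 0.11, adjusted p 0.0176) fell at 1 month but did not pass after the correction (-0.060, adjusted p 0.736 and -0.13, adjusted p 0.472), and at 6 months 0 passed and 0 had an unadjusted p below 0.05. Of 20 microtubule-associated proteins, 6 rose and 4 fell at 1 month, with Map1a (1.10 ± 0.11, adjusted p 1.16e-06) and Map1b (0.95 ± 0.11, adjusted p 6.47e-06), which stabilise axonal microtubules, among those that rose, and Stmn1 (-0.51 ± 0.11, adjusted p 0.00207), which destabilises them, among those that fell. At 6 months 3 of 20 fell, namely Map1a (-0.49 ± 0.11, adjusted p 0.00854), Map1b (-0.41 ± 0.11, adjusted p 0.0279) and Dclk1 (-0.41 ± 0.12, adjusted p 0.0338). After the correction 4 of the 20 were higher and 2 lower at 1 month, Map1a and Map1b among the higher ones, and Stmn1 did not pass (-0.21, adjusted p 0.115). At 6 months 4 were then higher and 0 lower, and Map1a (-0.22, adjusted p 0.144), Map1b (-0.077, adjusted p 0.567) and Dclk1 (-0.19, adjusted p 0.184) did not pass. Of 6 genes of the ciliary dynein 2, the motor that returns cargo moved out by Kif3a and Kif3b, the heavy chain Dync2h1 rose (0.66 ± 0.17, adjusted p 0.00906) and Dynlt1b fell (-1.37 ± 0.19, adjusted p 2.48e-05) at 1 month, of which Dync2h1 did not pass after the correction (0.052, adjusted p 0.808), and at 6 months 0 passed and 1 had an unadjusted p below 0.05.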

How the data were processed

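Whole-retina poly-A RNA of 12 libraries, 3 a group, was sequenced after preparation with the TruSeq RNA kit named in the labels' protocols, which does not keep strand. Per the submitters' processing notes, the authors used Trim Galore 0.6.6, STAR 2.7.1a, RSEM 1.3.3 and DESeq2 1.32.0 on GRCm38.p6, and they deposited expected counts for genes and for transcripts. These were rounded to whole numbers before testing, since 3.73% of gene values were not whole. Libraries were assigned by the sample names in the column headers, and 0 other columns of sample values were present. Counts were tested with edgeR 4.0.16 (filterByExpr, TMM, quasi-likelihood, 12 libraries, 8 residual degrees of freedom) under R 4.3.3, with Benjamini-Hochberg adjustment over all features and a threshold of 0.05. Values after ± are SDs for levels and approximate SEs for log2 fold changes, computed as the fold change over the root of F.

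CPM were computed here with TMM factors and TPM from transcript counts and annotated lengths. Gene names, lengths and coordinates came from GENCODE M21, which matched 55227 genes and 141374 transcripts. The length and GC trend of each library was fitted with splines of 4 degrees of freedom and entered as an offset. Retained-intron shares needed a mean of 10 counts in both classes. Library totals ran from 10928031 to 19552537, and replicates differed by more than counting noise. In simulated counts for the 1-month comparison (16233 genes), 19 of 67 genes changed 1.5-fold, 37 of 67 changed 2-fold and 52 of 66 changed 4-fold were recovered with 5 false calls. For transcripts (45326), 1 of 67, 8 of 67 and 39 of 66 were recovered. The changed transcripts were drawn only from those with a mean of at least 10 CPM, so recovery of lower ones was not measured.

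The kinesins and all lists were chosen with earlier results of these data known. Every kinesin was accounted for, with values per library for main transport and ciliary motors and for up to 4 called members a class with the smallest p, and up to 4 genes of each other list. The alternatives were other scalings and filters, DESeq2 1.42.0, a replicate block, the samples of 1 comparison alone, each library left out, those with most ribosomal RNA left out, feature classes left out and a length and GC correction. Transcripts and retained-intron shares were refitted only with a replicate block, another minimum level and each library left out. The labels give no batch.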

Additional observations from a re-analysis of the deposited data

Results flagged for a closer look

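For 13 kinesin genes the genotype difference at 6 months differed from that at 1 month by edgeR's test of the interaction, and their values below are the log2 difference at 6 months minus that at 1 month. It was lower at 6 months for 8 transport kinesins, namely Kif1b (-1.12), Kif5c (-0.98), Kif3c (-0.89), Kif5a (-0.82), Kif5b (-0.63), Kif1a (-0.56), Kif21b (-0.46) and Kif21a (-0.39). It was also lower for the kinesin-2 subunits Kif3a (-1.21) and Kif3b (-0.46) and for Kif26b (-1.91). It was higher for the mitotic kinesins Kif4 (3.26) and Kif22 (1.10).

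The mean transcript length behind the counts moved with the same groups, being longest in 5xFAD at 1 month (4195 to 4227 nt). Of the 13, 7 passed after the length and GC correction, namely Kif4, Kif26b, Kif3a, Kif1b, Kif5c, Kif3c and Kif5a. The ribosomal RNA share was largest in 5xFAD at 6 months replicates 1 and 2, which held the 2 highest Kif4 values. Their part in these differences was not tested.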

How the results depend on the processing

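With the length and GC correction 6 kinesins passed at 1 month, 3 at 6 months and 6 between the ages in 5xFAD, against 13, 6 and 12 without it. With the correction and a replicate block these were 6, 3 and 5 (10.8%, 8.73% and 14.7% of all genes). Values that changed sign under it, with the block added in brackets, were -0.00046 (-0.00056) for Kif1a and -0.077 (-0.077) for Kif21b at 1 month, 0.018 (0.017) for Kif3b between ages in 5xFAD, and 0.17 (0.16) for Kif21a, 0.15 (0.15) for Kif21b and 0.046 (0.042) for Kif3b in the interaction. None of these passed, and the cause was not tested. The medians over all genes tested were -0.048 (-0.044) at 1 month, 0.078 (0.073) between ages in 5xFAD and 0.14 (0.13) in the interaction. Without the correction they were -0.045, 0.026 and 0.059, in that order.

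At 6 months 2 kinesins passed when only the 6 samples compared were fitted (3.21% of all genes). The 6-month calls were not kept without the 3 libraries with most ribosomal RNA, which leaves 1 5xFAD library. Both fits used fewer libraries. Leaving out 1 library gave 7 to 13 calls at 1 month, 2 to 9 at 6 months, 10 to 12 between ages in 5xFAD, 2 to 7 in WT and 10 to 14 in the interaction. Over all genes the shares passing in these fits ran from 11.3% to 17% at 1 month and 1.64% to 10% at 6 months. Between ages they ran from 15.2% to 23.8% in 5xFAD and 4.63% to 11% in WT, and in the interaction from 17.2% to 27.1%. For transcripts, leaving out 1 library gave 1 to 3 calls at 1 month and 0 to 5 at 6 months. For retained-intron shares it gave 0 at each age, while a minimum of 50 counts gave 1 of the 2 kinesin genes left at 1 month. In these transcript and retained-intron fits the share of all features that passed is not given here, so the counts cannot be set against it.

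Same-numbered replicates of different groups did not deviate together (correlations from -0.085 to 0.062 over genes), so the numbers are not taken as a pairing. A replicate block gave 12, 6, 12 and 13 called kinesins at 1 month, at 6 months, between ages in 5xFAD and in the interaction, 3 between ages in WT, and 2 and 0 transcripts at 1 and 6 months. With the block 17.9%, 5.13%, 21.2%, 23.2% and 8.98% of all genes passed in these 5 comparisons, in that order. The share of all transcripts that passed with the block is not given here. DESeq2 called 13, 7, 12, 6 and 13 kinesins at 1 month, at 6 months, between ages in 5xFAD, between ages in WT and in the interaction. Of all genes it called 21.8%, 8.99%, 25.7%, 13.2% and 27.2%, in the same order.

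Of the single-gene values of called members, 743 kept direction and call, 160 kept direction alone and 12 changed sign. At this depth, kinesins with a few counts a library, the mitotic ones above all, could show large differences only.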

Other observations

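The shares of all genes that rose and fell were 10.7% and 8.91% at 1 month, and 2.48% and 3.89% at 6 months. Of 10 ganglion cell markers at 1 month, Slc17a6, a glutamate transporter, rose (0.40 ± 0.11, adjusted p 0.0119 in edgeR) and Sncg, a synuclein, fell (-0.81 ± 0.13, adjusted p 0.000114), and at 6 months 0 of 10 passed while 3 had an unadjusted p below 0.05. Of 8 bipolar cell markers 3 rose at 1 month, Nyx (1.56 ± 0.24, adjusted p 8.98e-05), Prkca (0.45 ± 0.11, adjusted p 0.0039) and Trpm1 (0.39 ± 0.12, adjusted p 0.0293), and 2 fell at 6 months, Prkca (-0.56 ± 0.11, adjusted p 0.00278) and Nyx (-0.87 ± 0.24, adjusted p 0.0293). Of 8 amacrine markers, Tfap2b (0.58 ± 0.10, adjusted p 0.000386) and Gad2 (0.59 ± 0.16, adjusted p 0.00926) rose at 1 month, and both fell at 6 months (-0.53 ± 0.10, adjusted p 0.00313 for Tfap2b and -0.68 ± 0.15, adjusted p 0.0104 for Gad2). Of 6 horizontal cell markers, Prox1 rose at 1 month (0.77 ± 0.12, adjusted p 0.00012), and Onecut2 (-1.32 ± 0.28, adjusted p 0.00659) and Prox1 (-0.48 ± 0.12, adjusted p 0.0198) fell at 6 months. With the length and GC correction, Prkca (0.011, adjusted p 0.948), Trpm1 (0.17, adjusted p 0.407), Gad2 (0.25, adjusted p 0.222) and Slc17a6 (0.17, adjusted p 0.37) did not pass at 1 month, nor did Prox1 at 6 months (-0.21, adjusted p 0.203).

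Of 8 cone markers 2 fell at 1 month and 3 rose at 6 months. Arr3, cone arrestin, fell at 1 month (-0.96 ± 0.11, adjusted p 6.41e-06) and rose at 6 months (0.51 ± 0.11, adjusted p 0.00728), and Opn1mw did the same (-0.42 ± 0.13, adjusted p 0.021 at 1 month and 0.61 ± 0.13, adjusted p 0.00483 at 6 months), while Gnat2, cone transducin, rose at 6 months (0.51 ± 0.11, adjusted p 0.00523). After the correction Opn1mw did not pass at 1 month (-0.14, adjusted p 0.483). Of the rod markers, Pde6a (0.54 ± 0.078, adjusted p 4.25e-05) and Nr2e3 (0.46 ± 0.089, adjusted p 0.000831) rose at 1 month, and Nrl (0.42 ± 0.086, adjusted p 0.00477) rose at 6 months. Of 8 Müller glia markers, Kcnj10, a potassium channel (0.85 ± 0.13, adjusted p 0.000111), and Aqp4, a water channel (0.68 ± 0.11, adjusted p 9.79e-05), rose at 1 month and Rlbp1, a retinoid carrier (-0.47 ± 0.085, adjusted p 0.000408), fell, and at 6 months Kcnj10 fell (-0.74 ± 0.13, adjusted p 0.00151). Of 8 microglia markers 0 passed at either age, with 1 and 0 at an unadjusted p below 0.05 at 1 and 6 months.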
